A study of Mus musculus with 4 samples.

Results

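In bone marrow-derived macrophages of 2 mice, 758 genes carried a single called site of N6-methyladenosine (m6A), at the same nucleotide in both animals. The sites were chosen by a rule on the called rows alone: a gene with 1 name, exactly 1 row in the table of mouse 1 and exactly 1 row in that of mouse 2, on the same chromosome, nucleotide and strand. They made up 758 of the 38082 sites called in both animals (1.99%) and of the 7827 named genes with a called site in both (9.68%). Mouse 1 had 45668 called sites in all and mouse 2 had 47747. The cells are labelled as wild-type macrophages, all kept for 3 h with lipopolysaccharide (LPS), a bacterial glycolipid sensed by macrophages, so resting cells were not compared. NTC, a term in the table names, is left unexplained by the labels. Each mouse gave 1 immunoprecipitated (IP) library, made with an antibody in the m6A-eCLIP assay, and 1 input library, 4 libraries in all. All 10 macrophage markers looked up, among them the integrin gene Itgam, had called sites in both mice. The share of all genes with such sites was not counted, so this describes these markers only.

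m6A is written on adenosines inside messenger RNA by the METTL3-METTL14 complex, mostly where a purine precedes the adenosine and a cytidine follows it. It is known for its density in long internal exons and around the start of the 3' UTR. A related mark, m6Am, lies on an adenosine that is the first transcribed nucleotide beside the cap, is written by PCIF1, and is also bound by antibodies against m6A. The labels and tables do not separate these marks, so the called nucleotides are described here as sites and not as either mark.

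Sequence could be read for the only sites that fell inside the RefSeq windows around annotated gene starts (GRCm38.p6). A window runs from 250 bases before to 50 after a start. Of the 758 only sites, 564 had an annotated start in that table, and 201 of these lay inside a window. The remaining only sites had no start there and could not be placed, among them some in 5' UTRs (242 of 306 had one). Every one of these 201 called nucleotides was an adenosine on the transcript strand, as were all 3392 sites of other genes inside such windows. The following 11 are shown because they are among the strongest only sites named in the text that have a window sequence. Each line holds 10 bases on either side of the called nucleotide, 5' to 3', with the called adenosine and the base before it in capitals.
Pdap1 (chr5:145140012-145140032, minus strand): ttccggtgtCAgttcgaggcg
Tma7 (chr9:109082368-109082388, minus strand): tgtttccggCAtacgatcagg
Oaz2 (chr9:65676569-65676589, plus strand): ggggagggtCAgttggaggca
Sin3b (chr8:72723278-72723298, plus strand): gaggcggggCAgaagcggctc
Mff (chr1:82724908-82724928, plus strand): ggaaggggtCAgtcctggccg
Lsm5 (chr6:56704673-56704693, minus strand): gtccttagcCActtccggcgt
Cxcl3 (chr5:90786093-90786113, plus strand): ctggagcccCAgatctcacca
Cxcl2 (chr5:90903863-90903883, plus strand): tcagagcccCAgactgcgcct
Polr2a (chr11:69758623-69758643, minus strand): ttctctcctCAgaagcgccga
Fam162a (chr16:36071551-36071571, minus strand): ccttggtgaCAttgagcgcca
Supt5 (chr7:28338736-28338756, minus strand): caggccagcTAggcgttgtgt
In 10 of these 11 the adenosine was preceded by C, and in Supt5 it was preceded by T. The site of Mff, of Polr2a and of Fam162a was itself the annotated start of the gene, while those of Cxcl2 and Supt5 lay 26 and 27 bases in front of the nearest annotated start.

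The printed sites are part of the larger set. C preceded the adenosine in 156 of the 201 only sites (77.6%, 71.2% to 83.2%), T in 33, G in 12 and A in 0 of 201, with an upper limit of 1.82%. At sites of other genes inside such windows, C preceded it in 2157 of 3392 (63.6%, 61.9% to 65.2%) and A in 161. The rule leaves out any gene with called adenosines side by side under its name, while the other genes keep them. How far the rule sets these shares was not tested. Over all adenosines of all start windows in the RefSeq table, 29.4% are preceded by C and 27.1% by A. The triplet CAG, with the called adenosine in the middle, was found at 90 only sites (44.8%, against 31.5% at sites of other genes and 10.8% of all window adenosines), and CAT at 49 (24.4%, against 15.98% and 5.43%). The triplets GAC or AAC, a purine before and a cytidine after, were found at 4 only sites (1.99%), against 81 sites of other genes (2.39%) and 10.6% of all window adenosines. All 4 lay upstream of the nearest annotated start. The triplets were read on the transcript strand at the called base only. As letters anywhere in the 300 bases, CAG is held by 99.8%, CAT by 92.6% and GAC or AAC by 99.7% of all start windows. Ranges given beside shares are 95% Clopper-Pearson limits. They reflect counting alone, and because sites and genes do not stand in for animals, no share is given a p-value.

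Only sites lay in 5' UTRs more often than in any other annotated position. The 5' UTR held 306 of the 758 (40.4%, 36.9% to 44.0%), against 20.6% (19.7% to 21.6%) of the strongest shared sites of the other 6850 genes and 18.8% (18.4% to 19.2%) of all their 35994 shared sites. Coding sequence held 140 only sites (18.5%, 15.8% to 21.4%), against 35.4% and 40.8% in these sets. The 3' UTR held 202 (26.6%, 23.5% to 29.9%), against 38.9% and 35.3%. The intervals of the only sites did not overlap those of either set for any of these positions. Both sets include genes with many sites, and genes with few sites are given below. Noncoding exons held 56 (7.39%, against 2.42% and 2.08%) and introns 38 (5.01%, against 2.09% and 2.23%). Splice sites held 6, and 10 bore the name of a microRNA hairpin. The tables of the mice annotated 17 of the 758 differently, and the annotation of mouse 1 is used here.

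**Figure D1:**
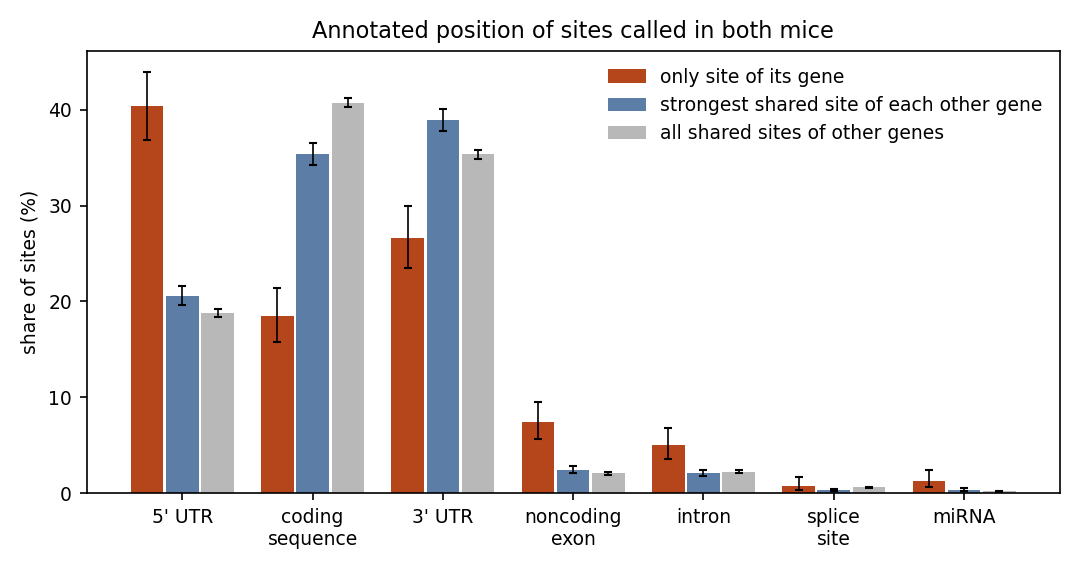
Share of sites (%) in each annotated position for the 758 only sites (red), the strongest shared site of each of 6850 other genes (blue) and all 35994 shared sites of those genes (grey), with exact 95% intervals as error bars. The red bar is the highest of the 3 in the 5' UTR (40.4%) and the lowest in coding sequence (18.5%) and the 3' UTR (26.6%).

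The shares changed with the number of sites of a gene. Among shared sites of other genes, the 5' UTR held 35.1% (33.1% to 37.1%) where the gene had 1 to 2 called sites in mouse 1. It held 33.1% at 3 to 4, 20.9% at 5 to 9 and 10.2% at 10 or more. The interval at 1 to 2 sites overlaps that of the only sites (36.9% to 44.0%). Coding sequence held 23.0%, 26.9%, 35.7% and 51.7% in the same order. The only sites stood at the low end of this series. Their genes were 93.1% protein-coding among the 736 matched to the RefSeq table, against 98.3% for other genes, with 19 long noncoding RNAs, 17 pseudogenes and 5 transcribed pseudogenes. The protein-coding genes with an only site spanned a median of 21.5 kb on the genome (quartiles 9.33 and 45.9), against 23.2 kb (10.3 and 52.2) in the other genes. Those with their only site in the 5' UTR spanned a median of 18.1 kb, against 16.7 kb for other genes whose strongest shared site lay there. Genomic span includes introns, and transcript length and abundance were not measured here.

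**Figure D2:**
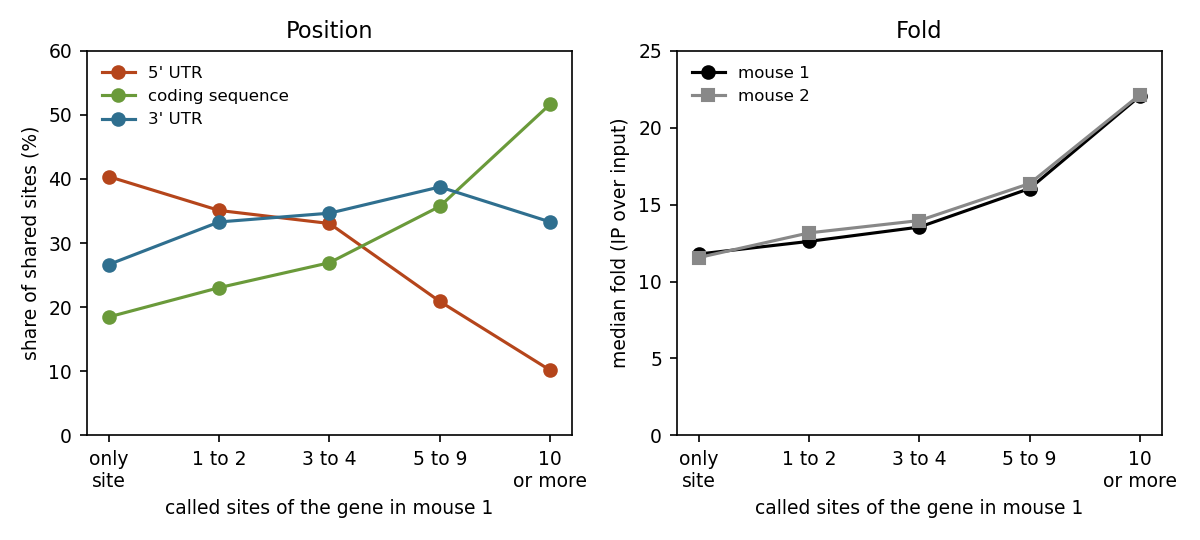
Left, share of shared sites (%) in the 5' UTR, coding sequence and 3' UTR; right, median IP-over-input fold in each mouse. The horizontal axis runs from genes with an only site to other genes by their number of called sites in mouse 1. The 5' UTR share goes from 40.4% at only sites to 10.2% in genes with 10 or more sites, while the median fold is lowest at only sites (11.8 in mouse 1 and 11.6 in mouse 2) and highest at 10 or more (22.1 and 22.2).

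The 5' UTR sites crowded at annotated gene starts. A start on the right strand was found in the RefSeq table for 564 only sites, of which 242 lay in 5' UTRs. Of these 242, 39 (16.1%, 11.7% to 21.4%) were the annotated first nucleotide itself, against 334 of 5519 5' UTR sites of other genes (6.05%, 5.44% to 6.71%). Another 43 lay 1 to 10 bases downstream of it. In all, 188 (77.7%, 71.9% to 82.8%) lay within 100 bases downstream of the start, against 64.6% (63.3% to 65.9%) of the 5' UTR sites of other genes. At the other end, 10 lay over 200 bases downstream (4.13%, against 14.8%). An annotated start is a single nucleotide, and other genes can give several 5' UTR sites each. These shares are therefore of sites and not of genes, and a comparison by gene was not made. Over all positions, 43 only sites were an annotated first nucleotide, and the base before them was C in 38 and T in 5. For the 363 such sites of other genes it was C in 292 and T in 59. Of all RefSeq starts that are an adenosine, 55.9% have C before it. A further 34 only sites lay upstream of the nearest annotated start. Starts of transcription in these cells were not measured, so a RefSeq start serves as a reference point only.

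**Figure D3:**
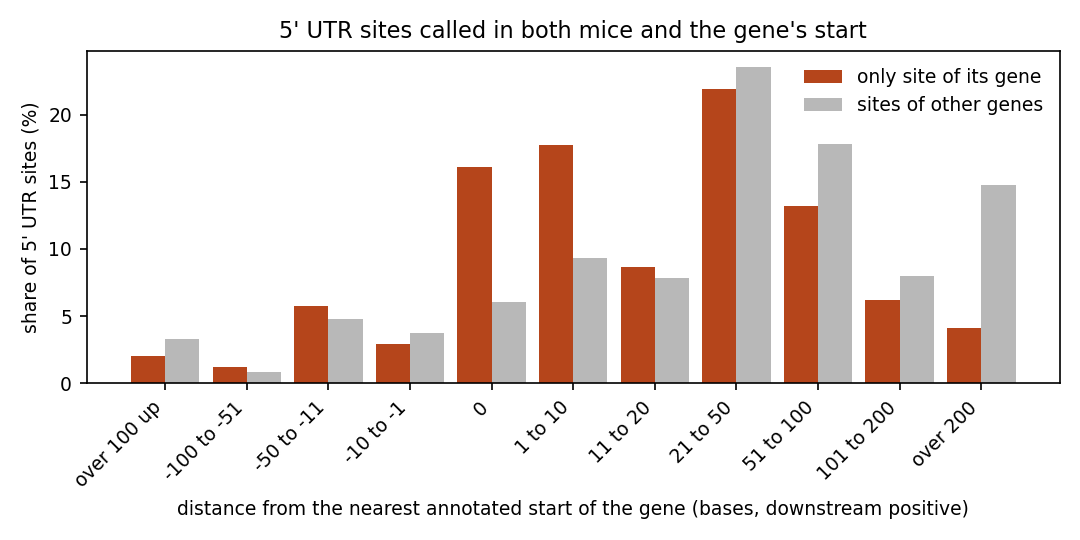
Share of 5' UTR sites (%) by distance in bases from the nearest annotated start of the gene, in bins of unequal width, for 242 only sites (red) and 5519 sites of other genes called in both mice (grey). At distance 0 the share is 16.1% of the only sites and 6.05% of the others, and beyond 200 bases it is 4.13% and 14.8%.

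The strength of a site is given as a fold, the ratio of read starts between IP and input, taken from the authors' deposited table of each mouse. Folds and scores come from the same contrast that chose the sites, so they are described without a test, and read numbers, and with them depth, are unknown. The 758 only sites had a median fold of 11.8 in mouse 1 (quartiles 8.02 and 19.8) and 11.6 in mouse 2 (7.70 and 18.5). Shared sites of other genes had medians of 17.5 and 17.8, and of 12.6 and 13.2 where the gene had 1 to 2 called sites in mouse 1. The folds of only sites ran between 0.401 and 139 in mouse 1 and between 0.354 and 139 in mouse 2. A fold of at least 8 was reached by 591 only sites in mouse 1 (78.0%), where 81.7% of all called sites reached it, and by 557 in mouse 2 (73.5%, against 79.1% of all). Of sites called in both mice in other named genes, 85.4% reached it in mouse 1 and 84.8% in mouse 2. Both mice passed it at 475 only sites (62.7%, 59.1% to 66.1%), against 76.9% of all sites called in both and 77.8% of those in other named genes, and neither mouse at 85. Where another gene had 1 to 2 called sites in mouse 1, 68.4% of its shared sites passed in both. Most folds were whole multiples of a constant of their table. The same multiple was 8.02 in mouse 1 and 7.70 in mouse 2, so it passed in mouse 1 alone. With the limit set before the constant, 67.7% of the only sites passed in both mice. Just above the limit of 8 was the site of AW209491 (8.02 and 10.6 in mouse 1 and mouse 2) and just below it that of Ube2n (10.6 and 7.98). Several only sites tied at a lower fold of 8.02, and AW209491 was taken by symbol. Mouse 1 annotated its site as intronic and mouse 2 as coding.

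How the fold compared with other genes depended on position. In 5' UTRs, only sites had medians of 12.3 and 12.7 in mouse 1 and mouse 2, against 11.2 and 11.6 at the 5' UTR sites of other genes. In 3' UTRs the medians were 12.03 and 12.5, against 20.1 and 21.2. In coding sequence they were 11.3 and 11.1, against 19.1 and 19.7. These other genes include those with many sites, and folds by position were not compared with genes of few sites alone. The share with a fold of at least 8 in both mice was 62.7% in 5' UTRs (57.1% to 68.2%, against 55.9% for other genes), 66.3% in 3' UTRs (59.4% to 72.8%, against 84.2%) and 66.4% in coding sequence (58.0% to 74.2%, against 83.7%). Noncoding exons had 28 of 56 such sites and introns 18 of 38. At the annotated first nucleotide the median folds of the 43 only sites were 13.04 and 14.4, against 14.04 and 13.5 for the 363 of other genes.

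The folds of the 2 mice followed each other. Over the 758 only sites the log2 folds correlated with r = 0.69 (Pearson) and rho = 0.62 (Spearman), against 0.74 and 0.70 over the 35994 shared sites of other genes. These correlations are across sites that share 2 libraries per mouse and carry no p-value. The median absolute difference between the mice was 0.48 on the log2 scale, against 0.56 at sites of other genes, and 576 only sites (76.0%) differed by at most 1 on that scale. Predicted genes left out, the 5 with the largest difference were Pmm2 (phosphomannomutase, 3' UTR, folds of 29.1 in mouse 1 and 5.54 in mouse 2), Fam102a (19.1 and 3.37), Pphln1 (3.51 and 18.3), Akip1 (4.68 and 23.1) and Zfp949 (3.01 and 14.4). Neither mouse was the higher one in all 5.

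**Figure D4:**
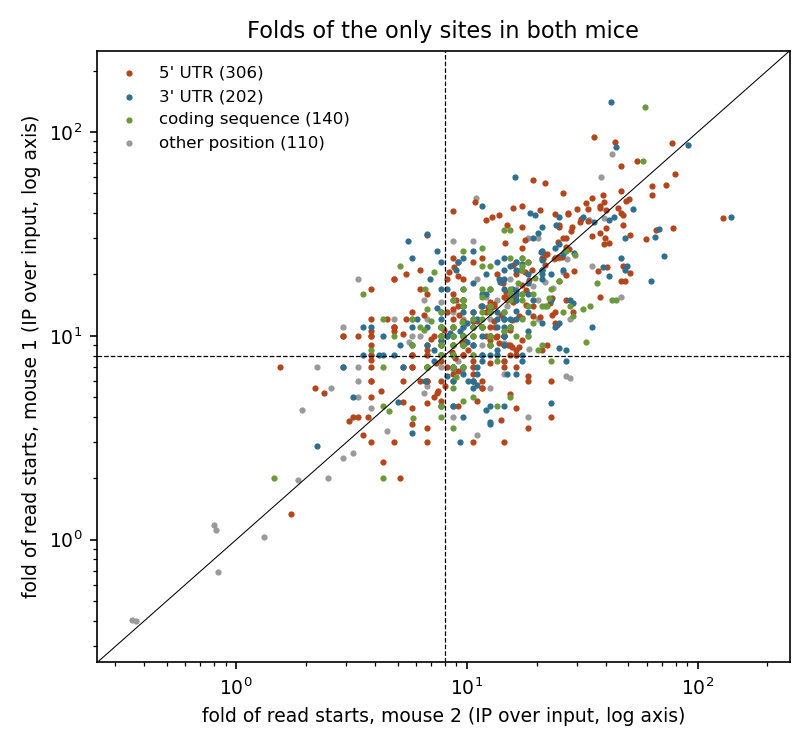
IP-over-input fold of each of the 758 only sites in mouse 1 (vertical) and mouse 2 (horizontal), both on log axes, coloured by annotated position with the number of sites in brackets. Dashed lines mark a fold of 8, which 475 sites reach in both mice, and the solid line marks equal folds.

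The highest only sites were spread over 5' UTRs, 3' UTRs and coding sequence. By the mean log2 fold of both mice the leading site lay in the 3' UTR of Pde8a, a phosphodiesterase that breaks down cyclic AMP, at position 81333728 of chromosome 7, with folds of 86.2 in mouse 1 and 90.5 in mouse 2. Next was a site in the coding sequence of Ccdc9 at 16275724 of the same chromosome, with folds of 132 and 58.7. Both animals placed these sites far above the limit of 8. In 3' UTRs followed Nhp2, a core protein of the H/ACA ribonucleoproteins that guide pseudouridylation (chromosome 11, position 51623221, folds of 139 and 41.9), and Ap1m1, a subunit of a clathrin adaptor (chromosome 8, position 72256876, folds of 38.4 and 139). These differed by over 3 times between the mice, in opposite directions. In coding sequence the ubiquitin ligase gene Rnf14 had folds of 72.2 and 57.8.

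Of the 10 highest, 5 lay in 5' UTRs, and their sequences are among those printed above. Pdap1 had folds of 88.2 in mouse 1 and 77.0 in mouse 2, and Tma7, whose product associates with the translation machinery, had 62.3 and 79.4. Both sites lay 3 bases downstream of an annotated start. Oaz2 encodes an antizyme that restrains polyamine synthesis (37.6 and 129), Sin3b a scaffold of histone deacetylase complexes (54.8 and 72.6) and Mff the outer-membrane receptor for mitochondrial fission (72.2 and 54.4). At the other end, the 5 lowest sites had folds around or under 1. They were a site in the mitochondrial transfer RNA gene mt-Tl2 (0.404 and 0.354), one under the name mmu-mir-7009 (0.401 and 0.367), the pseudogene Uqcrh-ps1 (0.694 and 0.832), an intron of Map3k15 (1.11 and 0.815) and a 3' splice site of Sec61g (1.19 and 0.802).

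In noncoding exons Fam162a (37.1 in mouse 1 and 33.8 in mouse 2) and Supt5, a transcription elongation factor (37.1 and 33.7), led once predicted genes were left out, and both adenosines are printed above. In introns Camta1 (30.1 and 18.3) and Trappc9 (29.1 and 8.67) led, with Ctla2b (23.7 and 23.9) and Tex30 (6.35 and 27.0) in introns of noncoding transcripts and Vrk3 (12.03 and 14.4) close to an exon. The sites of Ctla2b and Tex30 lay 42 and 53 bases downstream of an annotated start of their gene. Mouse 2 annotated that of Ctla2b as 5' UTR, and the name Ctla2b also occurs in joined names. At splice sites the fold was 15.5 and 46.2 in Ak7, 20.6 and 26.0 in Cdk11b and 7.52 and 9.15 in Rapsn. The strongest of the 6 splice-site members, at 60.2 and 38.2, lay in the predicted gene Gm6916, named here after its values were seen.

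Only sites were also counted by gene family. Over all 758, 62.7% had a fold of at least 8 in both mice and 40.4% lay in the 5' UTR. Each family was counted as genes with an only site out of those called in both mice, for which the background over all genes is 9.68%. The intervals of 23 of the 25 lists include this background, and no list was tested. In the list of cytokines and chemokines these were 6 of 34 (17.6%, 6.76% to 34.5%), all 6 with a fold of at least 8 in both mice and 5 of them in the 5' UTR. The list leaves out Ccl8 (15.5 and 14.9 in mouse 1 and mouse 2) and Mif (33.0 and 66.0). Both had an only site in the 5' UTR and are named here after their values were seen. Among the 28 other genes of that list with a shared site, the strongest lay in the 5' UTR in 8. The neutrophil-attracting chemokine genes Cxcl3 (33.6 in mouse 1 and 78.0 in mouse 2) and Cxcl2 (51.5 and 46.5) had the highest folds, and in both of the lines printed above the adenosine is preceded by C and followed by G. Il27, a subunit of interleukin 27, had 28.3 and 39.3, and the chemokine gene Ccl22 had 14.7 and 15.8 at its annotated first nucleotide.

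Signalling and interferon genes had few only sites. In NF-kB and Toll-like receptor signalling they were 2 of 49 genes (4.08%, 0.498% to 14.0%): Nfkbid, a nuclear IkB protein (17.7 in mouse 1 and 17.3 in mouse 2), and Ube2n, which builds lysine-63 ubiquitin chains. Both lay in 5' UTRs with another called site within 100 bases on the strand. In interferon-stimulated genes they were 2 of 59 (3.39%, 0.413% to 11.7%), the antiviral GTPase gene Mx2 (15.4 and 23.4) and the lysosomal thiol reductase gene Ifi30 (14.7 and 7.73). Lysosomal hydrolases and membrane proteins had 1 of 38, the acid ceramidase gene Asah1 with a 3' UTR site at 33.2 and 67.9. The intervals of all 3 lists include the background.

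In the translation machinery, cytosolic ribosomal protein genes had 8 of 28 (28.6%, 13.2% to 48.7%), 5 of them in the 5' UTR and 5 past a fold of 8 in both mice. Examples are Rpl27 (21.7 in mouse 1 and 40.4 in mouse 2), Rpl31 (20.8 and 37.1), Rpl30 (25.1 and 22.1) and Rpl23a (12.2 and 17.3). Translation initiation and elongation factors had 8 of 51 (15.7%, 7.02% to 28.6%), with Eif4e3, a cap-binding protein, at 37.1 and 41.4 in the 3' UTR. Others were Eif2b3 (15.04 and 27.0), Eif3g (12.7 and 23.4) and the kinase gene Eif2ak4 (23.1 and 10.6), all in the 5' UTR. Aminoacyl tRNA synthetases had 4 of 26, with folds of 26.8 and 27.6 in Rars, 39.1 and 13.8 in Kars, 31.6 and 6.74 in Qars and 10.5 and 3.85 in Lars. Reads of ribosomal protein and histone genes may be shared with near-identical copies, and how such reads were counted is not given in the sources used here, so these members are uncertain.

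Mitochondrial lists had shares between 6.25% and 18.2%, with intervals that include the background. The respiratory chain and ATP synthase list, which also takes in the assembly factor gene Ndufaf6, had 10 of 82 (12.2%, 6.01% to 21.3%). Of these 10, 8 lay in the 5' UTR, as did the strongest shared site of 51 of the 68 other genes of the list. The complex I genes Ndufb9 (29.8 in mouse 1 and 59.6 in mouse 2) and Ndufa9 (30.9 and 34.7) and the complex IV gene Cox8a (23.7 and 21.4) led, with Ndufaf6 at 12.03 and 27.9. Mitochondrial ribosomal proteins had 4 of 64 (6.25%), of which Mrps14 (37.5 and 31.3) and Mrpl24 (10.03 and 14.4) passed the limit in both mice and Mrps9 (3.84 and 14.0) and Mrpl23 (7.02 and 6.74) did not. The import list had 4 of 22 (18.2%), where Timm10b had 60.2 and 16.1, Timm17b 41.1 and 8.67, Timm9 6.35 and 8.18 and Tomm34 4.51 and 4.33. The gene name of Timm10b also occurs in joined names, so it may have further sites.

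Families of the nucleus and of protein turnover followed. Small nuclear RNP and Lsm genes had 5 of 19 (26.3%, 9.15% to 51.2%), among them Lsm5 (54.3 in mouse 1 and 63.0 in mouse 2) and the U1 subunit gene Snrpc (31.3 and 51.03), with Lsm1 (21.1 and 16.4) and Snrpf (13.9 and 13.2). RNA polymerase subunits and general factors had 5 of 50, led by Polr2a, the largest subunit of RNA polymerase II (42.1 and 37.6), then Taf12 (8.52 and 27.0) and Polr3g (13.04 and 10.6). Proteasome subunits, a list that by symbol also takes in Psmc3ip (8.02 and 8.67), had 5 of 38 (13.2%), with Psmb2 at 41.5 and 40.1, Psme4 at 18.6 and 48.1 and Psmb4 at 20.5 and 17.8. Core histones and variants had 5 of 15 (33.3%, 11.8% to 61.6%), all in the 5' UTR. Of these 5 the variant gene H2az2 alone passed the limit (18.6 and 25.04), while H3c7 had 4.76 and 7.70, H4c1 5.35 and 4.24, and H2ac8 3.68 and 5.78. Most histone messages made during DNA replication carry no poly(A) tail, and the RNA of this assay was selected for one. Whether this bears on the histone folds was not tested.

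Zinc finger genes carried their only sites mostly in coding sequence: of 15 only sites among 132 Zfp genes (11.4%, 6.50% to 18.05%), 8 lay in coding sequence and 3 in the 5' UTR. The strongest shared site of the 107 other Zfp genes lay in coding sequence in 67. Zfp335 (25.1 in mouse 1 and 26.0 in mouse 2) carried a 3' UTR site, and Zfp993 (23.1 and 18.3), Zfp397 (13.04 and 11.6) and Zfp688 (15.04 and 9.63) carried coding ones. Solute carriers had 8 of 132 (6.06%, 2.65% to 11.6%), 5 in the 3' UTR. The copper importer gene Slc31a1 (34.1 and 21.2) and Slc35a1 (15.04 and 19.3) had 3' UTR sites, the nucleotide exchanger gene Slc25a5 (22.2 and 15.8) a 5' UTR site and Slc39a2 (11.5 and 19.3) the coding one. The Tmem genes, a group by name and not by function, had 11 of 106 (10.4%), led by Tmem160 (94.3 and 35.3), Tmem128 (24.8 and 21.9), Tmem161b (14.04 and 27.9) and Tmem123 (23.1 and 9.15).

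For membrane traffic and the remaining lists every interval includes the background of 9.68%. Endosomal sorting genes had 4 of 54 (7.41%): Vps37a (24.1 in mouse 1 and 14.4 in mouse 2), Vps52 (24.1 and 11.6), Vps26b (24.1 and 9.63) and the ESCRT-III gene Chmp2b (26.1 and 7.38). Rab GTPases had 1 of 39, Rab2a (20.9 and 29.01), and the vacuolar ATPase had 0 of 14, with an upper limit of 23.2%. Genes of entry into the endoplasmic reticulum had 4 of 17 (23.5%), with Srp54a at 41.6 and 20.7, Srp68 at 12.7 and 6.50 and Sec61a2 at 4.68 and 6.74 beside Sec61g. N-glycosylation and GPI anchor enzymes had 3 of 26, Alg12 (8.02 and 17.3), Pigt (10.5 and 9.31) and Piga (10.03 and 9.63), all past the limit. Ubiquitin-conjugating enzymes had 4 of 26, with Ube2j1 at 14.04 and 21.7, Ube2t at 4.01 and 3.37 and Ube2e2 at 2.01 and 5.14 beside Ube2n, and Mediator subunits had 2 of 26, Med12 (12.5 and 28.9) and Med24 (7.52 and 7.70). Of 22 genes of the m6A machinery 4 had an only site. These were Hnrnpc (15.2 and 15.3), Trmt112 (7.52 and 14.4), Mettl5 (6.02 and 7.70) and Zcchc4 (8.02 and 4.81), and the last 3 belong with the methyltransferases of ribosomal RNA.

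**Figure D5:**
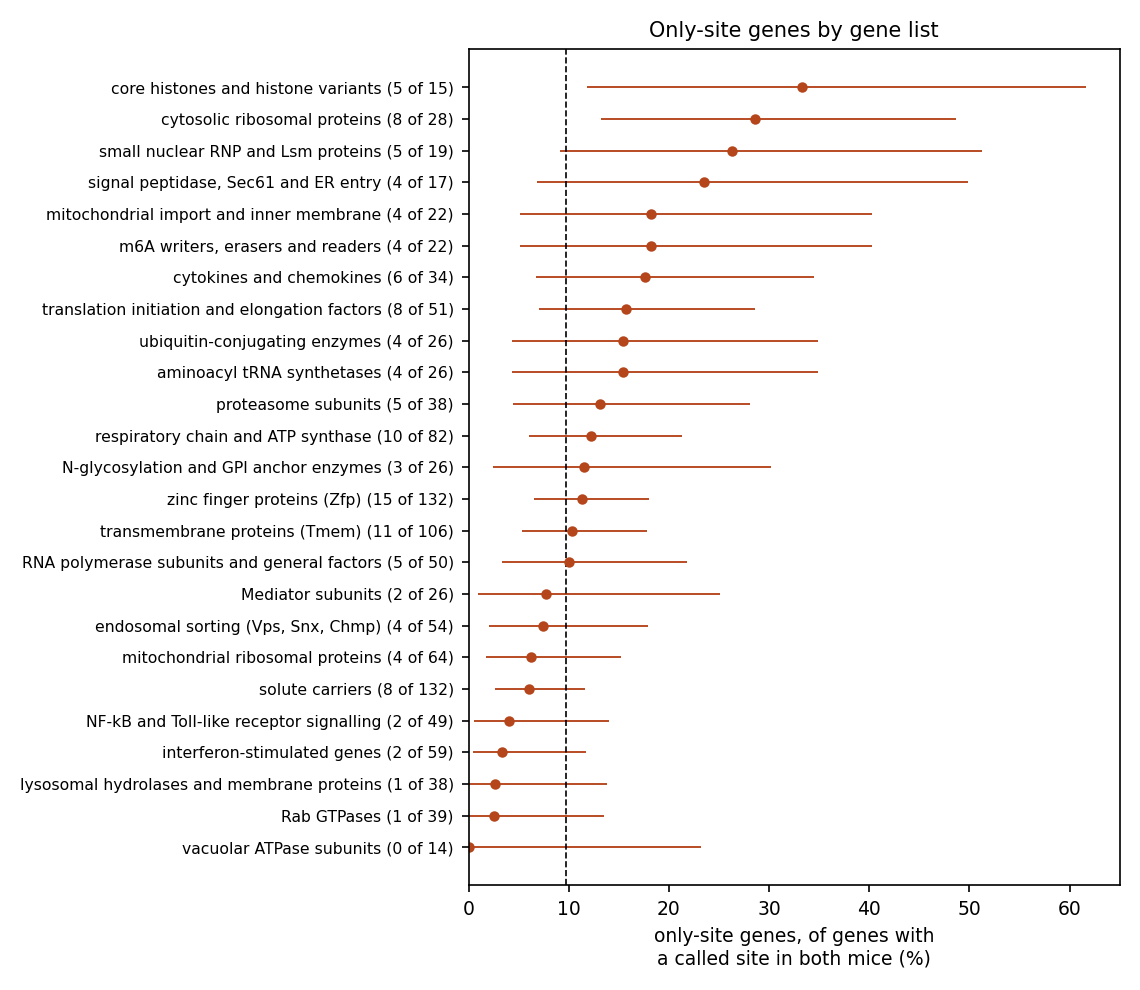
Genes with an only site as a share (%) of the genes of each list with a called site in both mice, with exact 95% intervals; counts are in brackets and the dashed line marks 9.68% over all 7827 genes. Core histones (5 of 15) and cytosolic ribosomal proteins (8 of 28) are the lists whose intervals lie wholly to the right of the line, and the intervals of the other lists cross it.

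Markers of other cell types were also looked up. Of 8 neutrophil markers 5 had called sites in both mice, and 3 of these were only sites, all in the 5' UTR: Ngp (41.8 in mouse 1 and 33.5 in mouse 2), Camp (24.1 and 21.2) and Ltf (9.03 and 14.4). RNAs of these neutrophil genes were thus among those with called sites, and their part in the other results was not tested. Lymphocyte, dendritic and stromal or erythroid markers had called sites in both mice for 2 of 8, 1 of 6 and 1 of 8 genes, none of them only sites. Marker counts have no share over all genes beside them and are not a measure of the cell types present. The macrophage marker Itgam was an only site in the 3' UTR (19.1 and 6.92), although its name also occurs in joined names.

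Whether a gene has only 1 site depends on the score limit of the tables, above which every listed site lies. In mouse 1, 1632 genes had exactly 1 site and in mouse 2 1609, and 880 had 1 in each. The nucleotide was the same in 758 of the 880 (86.1%, 83.7% to 88.4%). Just outside the rule were 519 genes with 1 site in one mouse and 2 in the other, and in 458 of these the single site was called in both. Those shared sites had median folds of 12.03 and 12.5 and median scores of 24.9 and 27.4, beside 26.5 and 27.2 at the only sites, while the extra site had a median score of 14.7. Just inside, 47 only sites had a score under 11 in at least 1 mouse. A further 360 genes had 1 site in mouse 1 and none in mouse 2, with a median score of 14.6, and 411 the reverse, with 15.03. With sites under a score of 20 left out, 895 genes had a single shared site, of which 436 were among the 758. Another called site of any name lay within 100 bases on the same strand at 47 of the 758 only sites, 31 of them in 5' UTRs. Among the genes described above these are Nfkbid, Ube2n, Ube2t, Rars, Rab2a, Slc25a5, Timm10b, Camta1, Supt5, Ccl8, Mif, mt-Tl2 and mmu-mir-7009.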

How the data were processed

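m6A-eCLIP was run on macrophages of 2 mice, with 1 IP and 1 input library each, after selection of polyadenylated RNA, per the labels' protocols. The submitters' processing notes list the builds mm10 and hg38 and, as tools, UMI-tools 0.5.1, STAR 2.6.0c and cutadapt 2.7. Not given in the sources used here: site caller, score definition and annotation. The authors deposited 1 table per mouse with a score per site (all above 10, per the file headers and values) and a fold, their ratio of read starts in IP over input. Of the folds, 62.1% in mouse 1 and 62.0% in mouse 2 were whole multiples (within 1e-06) of a constant of the table, 1.003 and 0.963. Read numbers are not given, so depth is unknown and no error could be set on a fold.

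The member rule set aside rows whose name joins several genes (mouse 1, 265; mouse 2, 267) and unnamed rows (mouse 1, 1445; mouse 2, 1534). Positions are the interval ends, 1-based. They were read as mm10, which shares coordinates with GRCm38.p6: 706 of the 735 only sites on the chromosome of their RefSeq gene lay inside it (96.1%). Symbols matched for 736 members. Distances are to the nearest of a gene's starts in the RefSeq start windows, which 564 members had. The fold limit was 8 (log2 fold 3). No test was run: with 1 IP per mouse, sites are not replicates and the rule used the same contrast.

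Genes were named by rule: the 10 highest, 5 lowest and 5 most different between mice, the 2 highest per position, up to 4 per list and those beside the limit, without predicted genes. Marker genes were named in addition. Some genes and sequences that the rule picks are not reported here. The members and the 25 lists were chosen with earlier results of these data known. The member rule and the distances were checked on simulated tables. Python 3.11.15 was used with SciPy 1.17.1 for intervals, Matplotlib 3.10.9 for figures, pandas 2.3.3 and NumPy 2.4.6.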

Additional observations from a re-analysis of the deposited data

How the results depend on the processing

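No paired analysis was possible because no test was run; IP and input of a mouse are already joined in the fold. The count of 758 stayed within 1.5 times under sites within 5 bases taken as the same (767), sites within 5 bases merged (901), joined names counted (768), a score of at least 20 (895) and enriched sites alone (767). The last 2 changed which genes were counted: 436 of the 895 and 475 of the 767 were among the 758. Each mouse alone gave 1609 to 1632 genes, with 32.8% to 33.8% of sites in the 5' UTR, 28.0% to 28.4% near a start and a median fold of 9.63 in mouse 2 and 10.03 in mouse 1. With the limit applied in 1 mouse, 73.5% to 78.0% of the members passed it. The share past the limit in both mice was 90.2% at a fold of 4, 22.3% at a fold of 16, 67.7% when the limit was set before the table's constant and 79.6% at a score of at least 20, where the median folds were 16.05 and 16.2. Among the 564 members with an annotated start, the share near it was 30.3% within 50 bases and 41.0% within 300, against 36.7% within 100. The base before the called one was A in 0 of the members with a window and the base after it in 3.0%. Without the members near another site or in joined names, an alternative chosen after seeing the data, 708 remained, with 38.7% in 5' UTRs and 62.7% past the limit. Depth is unknown, so sites missed in weakly expressed genes cannot be counted.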

Other observations

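Of the 758 only sites, 10 bore the name of a microRNA. These were listed under the hairpin and not under the gene around it, and 5 of the 10 had another called site within 100 bases on the strand. Their positions lay inside the RefSeq span of Glul, which encodes glutamine synthetase, for mmu-mir-8114 (22.1 in mouse 1 and 34.7 in mouse 2), of the microprocessor gene Dgcr8 for mmu-mir-1306 (23.1 and 16.4), of the desaturase gene Scd2 for mmu-mir-5114 (24.1 and 25.04) and of Arglu1 for mmu-mir-7654 (37.6 and 39.2). The highest was mmu-mir-12191 (78.2 and 42.6), and mmu-mir-7648 (15.04 and 20.2) lay in no gene of the table. In the 5 whose site lay inside a RefSeq hairpin of the same strand, the called base was A. The surrounding genes, mmu-mir-1306 and mmu-mir-5114 were picked after their values were seen.

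In 122 genes each mouse had a single site, but at different nucleotides. The median gap was 167 bases, 38 pairs lay within 50 bases and 9 within 5. Of the pairs, 39 lay in coding sequence in both mice, 28 in the 3' UTR and 12 in the 5' UTR. Their median scores, 14.7 in mouse 1 and 14.9 in mouse 2, were lower than those of the 758 (26.5 and 27.2).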
